A study of Ceratopteris richardii with 9 samples.

Results

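Ceratopteris richardii is a fern grown as a model of root development, and its genome encodes homeodomain transcription factors of the WUSCHEL-RELATED HOMEOBOX (WOX) family. The WOX9 clade, also called the intermediate clade, is represented in the transcriptome of the young sporophyte by 2 transcripts, transcript45206 and transcript86378. Both were taken by their numbers from the study's list of WOX transcripts, and both rows were present among the 28952 transcripts of the deposited table. The study's text calls transcript45206 CriWOXA and transcript86378 CriWOXB, whereas its tree of the clade gives the names the other way round. The transcript numbers are therefore used here in place of the names.

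WOX proteins bind DNA through a homeodomain and are known for keeping stem cells in an undifferentiated state. In Arabidopsis, WOX8 and WOX9 act in the patterning of the early embryo, and WOX11 and WOX12 act in the first steps of adventitious root formation. These 4 Arabidopsis genes belong to the same clade. WUS and WOX5, of another clade, maintain the stem cells of the Arabidopsis shoot and root apical meristems. The Ceratopteris root has no quiescent center and grows instead from a single apical cell.

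RNA was sequenced from 3 segments of sporophytes of the Hn-n strain at 45 days after fertilization, without any treatment. They were the root tip (RT), the differentiated root, meaning the root without its tip (DR, DT in the sample titles), and the shoot, meaning leaves and stem (SH), with 3 biological replicates each and 9 libraries in all. Segments of several plants were pooled in each library, so a value is an average over plants and over all cell types of the segment, and fewer cells of a type cannot be told apart from less RNA per cell. The SH included the stem with its apical meristem as a small share of the tissue.

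The values are estimated counts, that is, sequenced fragments assigned to a transcript, which were rounded to whole numbers. They are given as CPM, the count relative to a library size adjusted by the TMM factors of edgeR. Library totals ranged from 20065742 to 27376654 counts. One count was worth between 0.0367 and 0.0511 CPM, depending on the library. CPM is not divided by transcript length, so levels are compared between segments within a transcript and not between the transcripts.

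The labelled segments were checked with transcripts that the study had picked on these libraries. The summed level of 6 D-type cyclin (CYCD) transcripts, which drive entry into the cell cycle, was 240 to 303 CPM in the RT libraries, 21.7 to 45.0 CPM in the DR libraries and 160 to 171 CPM in the SH libraries. transcript38379, a PIN auxin transporter, was at 18.2 to 26.3 CPM in the root libraries and at 0.920 to 1.33 CPM in the SH libraries. Another PIN transcript, transcript89165, was at 9.76 to 18.1 CPM in the SH libraries. The third PIN transcript examined, transcript50074, did not separate root from shoot, with a mean of 109.7 CPM in the RT, 15.6 CPM in the DR and 40.9 CPM in the SH. In the RT, transcript89165 was at 0.959 CPM in replicate 1, against 0.117 and 0.111 CPM in replicates 2 and 3. The part of this difference in the results was not tested.

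The transcripts of the pair were distributed over the sporophyte in opposite ways with respect to the differentiated root. transcript86378 was highest in the DR and transcript45206 lowest there. Both were detected in all 9 libraries.

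transcript45206 had 37, 105 and 187 counts in RT replicates 1 to 3, which gave 1.48, 4.10 and 6.95 CPM. In the DR libraries there were 4, 15 and 13 counts, or 0.147, 0.554 and 0.524 CPM. In the SH it had 31, 63 and 47 counts, or 1.58, 2.71 and 2.02 CPM. All 3 DR libraries therefore lay below the 6 others, as for 17.8% of all transcripts, and the lowest SH library was 2.86-fold above the highest DR library. RT replicate 1 lay below every SH library, so the RT and SH overlapped.

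The mean level of transcript45206 across the RT libraries was 4.18 ± 2.74 CPM (SD, n = 3), against 2.10 ± 0.567 CPM for the SH and 0.408 ± 0.227 CPM for the DR. Of the sum of these means, 62.4% was in the RT, 31.5% in the SH and 6.11% in the DR. With only 4 counts in DR replicate 1, the exact 95% Poisson interval of its level ran from 0.0400 to 0.376 CPM. These intervals cover counting error only.

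To ask where each transcript was enriched, a segment was set against the average of both others on the log2 scale, within 1 model of the 9 libraries. The tests are the quasi-likelihood tests of edgeR, and p-values were adjusted over all 28952 transcripts (Benjamini-Hochberg). For transcript45206 the RT exceeded that average by a log2 difference of 2.17 (standard error, SE, 0.47, adjusted p = 0.00304), a 4.48-fold difference. At an adjusted p of 0.05, 30.3% of all transcripts were higher in the RT, and with a log2 fold change of at least 2 as well, 7.06% were. Among all transcripts it ranked 1854 in this difference from the top.

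In the DR, transcript45206 was lower than the mean of the RT and SH (log2 fold change -2.85, SE 0.58, adjusted p = 0.00216). In this direction 31.5% of all transcripts passed 0.05, and 7.02% passed with a log2 fold change of -2 or below. It ranked 977 from the lowest. The difference of the SH was 0.69 (SE 0.49, adjusted p = 0.257) and did not pass 0.05. At this threshold 28.7% of all transcripts were higher in the SH, and 19.6% without the TMM factors.

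The order of the segments for transcript45206 was RT, SH and DR from high to low. Tested pairwise in the same edgeR model, the RT exceeded the DR by 3.34 (SE 0.63, adjusted p = 0.00130), or 10.2-fold, in a comparison in which 29.9% of all transcripts were higher in the RT. The difference was 2.74 without RT replicate 3 (adjusted p = 0.00508). The SH exceeded the DR as well, at a log2 ratio of DR over SH of -2.36 (SE 0.62, adjusted p = 0.00895), where 30.8% of all transcripts were lower in the DR.

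The RT and SH, the neighbours at the top of that order, were not separated for transcript45206. The log2 fold change was 0.99 (SE 0.55, adjusted p = 0.153), with a 95% interval from -0.25 to 2.22. The lack of a call depended on RT replicate 1, since without it the difference was 1.39 and passed 0.05 (adjusted p = 0.0237). Without RT replicate 3 the difference was 0.43 (adjusted p = 0.545 in edgeR). With library size alone, without TMM factors, it was 1.34 (adjusted p = 0.0538 in edgeR). RT replicate 1 had the highest level of transcript89165 in the RT, as given above, and the lowest summed CYCD level, 240 CPM against 281 and 303. This sum depends on the scaling, because RT replicate 1 had the highest TMM factor of all libraries, 1.248, which lowers its CPM. The CYCD transcripts differed in their order within the RT both with and without the factors. With them, transcript48787 was highest in RT replicate 1, at 8.63 CPM against 3.86 and 3.79 in replicates 2 and 3. Without them, transcript68371 stayed lowest in RT replicate 1, whereas transcript77150 was highest there.

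**Figure D1:**
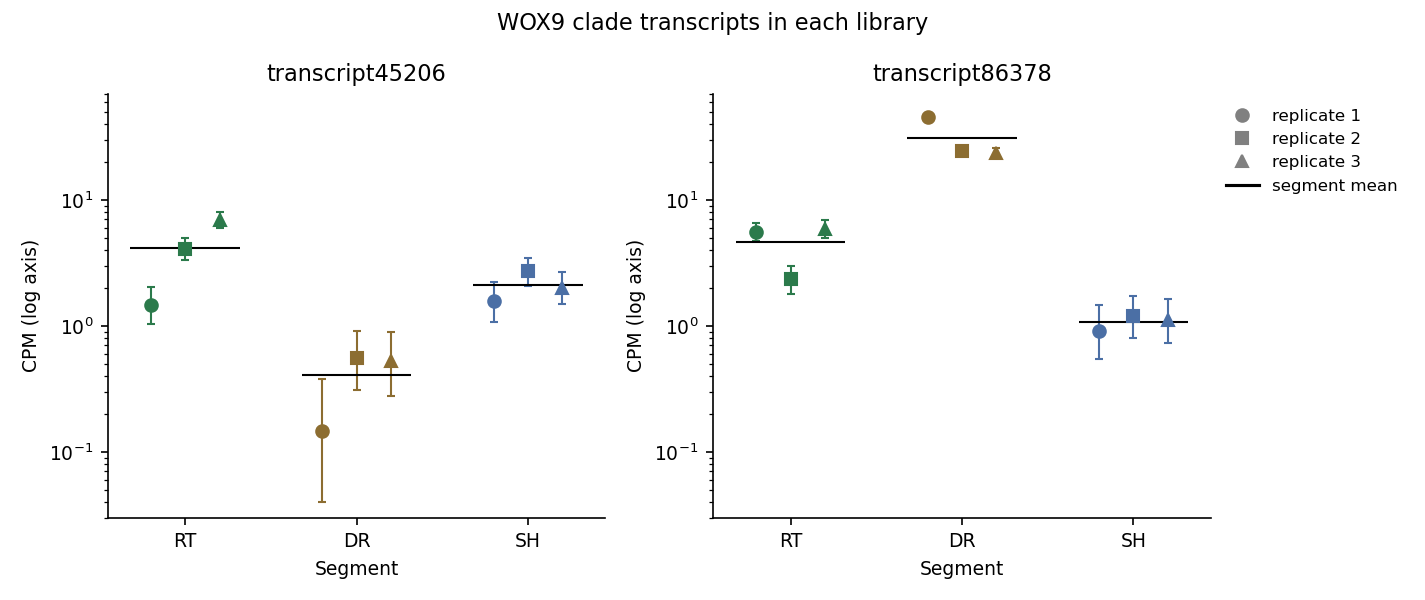
Level of transcript45206 and transcript86378 in each of the 9 libraries, in CPM on a log axis, by segment. Points are libraries with exact 95% Poisson intervals for counting error, and horizontal lines are segment means. The 3 DR libraries of transcript45206 lie below all others, at 0.147 to 0.554 CPM, and those of transcript86378 above all others, at 23.6 to 45.8 CPM.

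transcript86378 had 1248, 659 and 586 counts in DR replicates 1 to 3, or 45.8, 24.3 and 23.6 CPM. In the RT it had 140, 60 and 159 counts, or 5.59, 2.34 and 5.91 CPM. In the SH it had 18, 28 and 26 counts, or 0.920, 1.20 and 1.12 CPM. The 3 segments did not overlap. The lowest DR library was 4.00-fold above the highest RT library, and the lowest RT library 1.94-fold above the highest SH library. Such a separation, in the order DR, RT and SH, was found in 4.73% of all transcripts.

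The mean level of transcript86378 was 31.3 ± 12.6 CPM (SD, n = 3) in the DR libraries, 4.61 ± 1.97 CPM in those of the RT and 1.08 ± 0.145 CPM in those of the SH. The DR held 84.6% of the sum of these means, the RT 12.5% and the SH 2.92%. Of the 23294 transcripts with a mean of at least 1 CPM, 3.06% had an equal or larger share in the DR. For the share of transcript45206 in the RT the corresponding figure was 7.03%.

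Against the mean of the RT and SH, transcript86378 was higher in the DR by a log2 difference of 3.80 (SE 0.31, adjusted p = 8.66e-06 in edgeR), or 13.9-fold. At an adjusted p of 0.05, 27.9% of all transcripts were higher in the DR, and 10.8% with a log2 fold change of at least 2 as well. It ranked 1105 from the top. With single libraries left out the difference stayed between 3.42 and 3.97. In the SH it was lower than the mean of the root segments, by a log2 ratio of -3.46 (SE 0.39, adjusted p = 5.21e-05), where 27.6% of all transcripts were lower, and 42.7% without the TMM factors.

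In the contrast of the RT with the mean of the DR and SH, transcript86378 gave -0.34 (SE 0.33, adjusted p = 0.410), with a 95% interval from -1.08 to 0.41. The RT lay between the other segments, and this contrast averages over them. Pairwise, the RT was below the DR (log2 fold change -2.76, SE 0.38, adjusted p = 0.000199), where 27.9% of all transcripts were lower in the RT. It was above the SH by 2.09 (SE 0.41, adjusted p = 0.00156), or 4.24-fold, where 29.9% of all transcripts were higher in the RT. transcript86378 was thus measured in the root tip at a level above that of the shoot, and the contrast with the averaged segments did not show it.

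The widest difference of either transcript was that of transcript86378 between DR and SH, 4.84 (SE 0.43, adjusted p = 1.51e-05), or 28.7-fold, in a comparison in which 27.0% of all transcripts were higher in the DR. All neighbours in its order, DR, RT and SH, therefore differed. Calls in this order for all 3 pairs were made for 3.79% of all transcripts. The calls of transcript45206, with the DR below both other segments and no call between these, were shared by 6.77%.

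**Figure D2:**
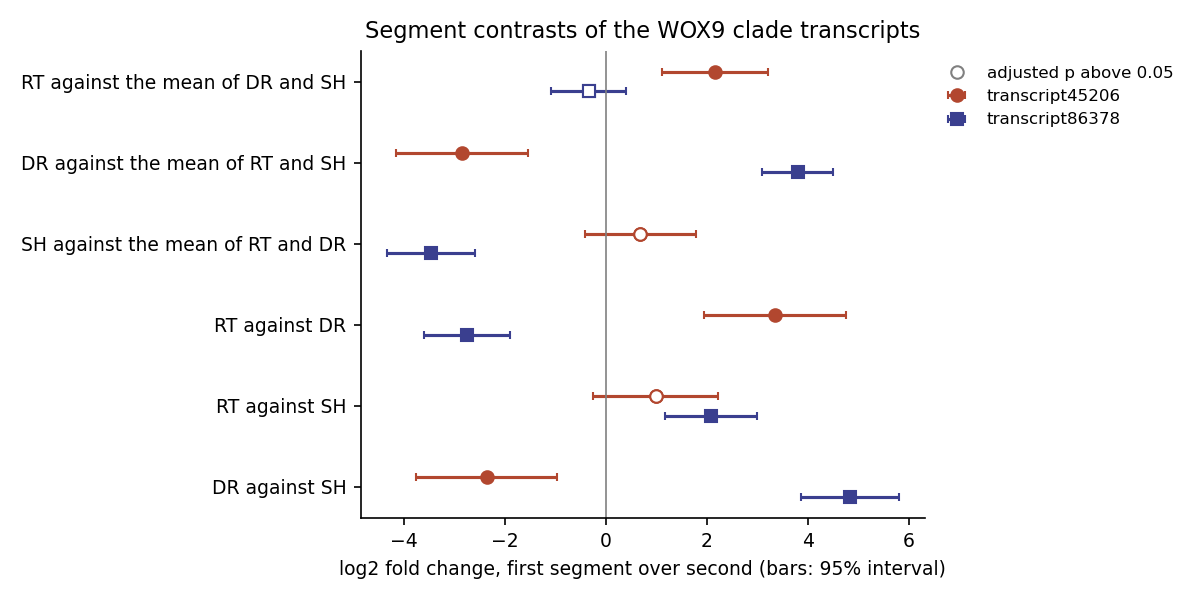
Log2 fold changes of both transcripts in 6 contrasts from edgeR, the first segment named over the second, with 95% intervals, and open symbols where the adjusted p was above 0.05. The transcripts lie on opposite sides of 0 in each contrast except RT against SH, where both are above 0, at 0.99 for transcript45206 and 2.09 for transcript86378.

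The contrast between the transcripts was also measured within libraries, with the log2 ratio of transcript45206 to transcript86378, each as CPM + 0.5. All 3 DR libraries were already the lowest for transcript45206 and the highest for transcript86378, so their ratios had to be the lowest. A test of the DR on this ratio therefore adds no evidence to that separation. The ratio has no absolute meaning without the transcripts' lengths, and it is compared between segments only. Because transcript45206 lay between 0.147 and 0.554 CPM in the DR, the added 0.5 CPM pulls the ratio of these libraries toward 0 and affects the size of the difference. In the RT libraries it was -1.62, 0.69 and 0.22 in replicates 1 to 3, in the DR libraries -6.16, -4.56 and -4.56, and in the SH libraries 0.55, 0.91 and 0.64.

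The DR libraries all lay below the 6 others, and the RT and SH overlapped. The mean ratio was -5.09 ± 0.926 (SD, n = 3) in the DR, -0.24 ± 1.22 in the RT and 0.70 ± 0.188 in the SH. The DR differed from the 6 other libraries by -5.33 (exact permutation test over 84 divisions of the libraries, two-sided, p = 0.0119, the smallest p that these allow, and adjusted p = 0.0357 over 3 such tests). The size depended on the value added, being -6.30 with 0.1 CPM and -4.65 with 1 CPM, at the same adjusted p of 0.0357 (exact permutation test). The difference was 1.96 for the RT (exact permutation test, p = 0.405, adjusted p = 0.405) and 3.37 for the SH (exact permutation test, p = 0.0714, adjusted p = 0.107). Between RT and SH alone the difference was -0.94 (exact permutation test, two-sided, p = 0.30, where 0.10 is the smallest p possible with 3 libraries against 3).

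**Figure D3:**
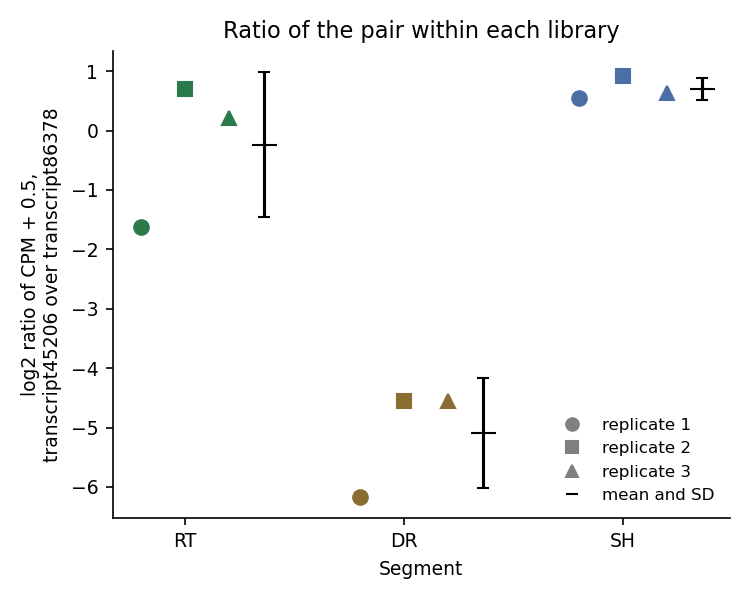
Log2 ratio of transcript45206 to transcript86378 (each as CPM + 0.5) in each library, by segment, with the mean and SD of each segment. The DR libraries lie between -6.16 and -4.56, and the other 6 between -1.62 and 0.91.

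Within the DR, replicate 1 had the lowest level of transcript45206 and the highest of transcript86378, 1.88-fold above replicate 2. Its summed CYCD level, 45.0 CPM, was the highest in the DR, against 30.9 and 21.7 CPM in replicates 2 and 3, and the part of the tissue composition in this was not tested. Without DR replicate 1 the difference of the ratio in the DR was -4.79. Within the RT, the level of transcript45206 differed by 4.70-fold between the lowest and the highest library, and that of transcript86378 by 2.52-fold. Within the SH these figures were 1.71-fold and 1.31-fold. The biological coefficient of variation that edgeR estimated was 0.482 for transcript45206 and 0.333 for transcript86378, both above the trend at their level, 0.366 and 0.275.

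The estimated counts also show how reads were assigned. For transcript86378, 8 of the 9 values were whole numbers (within 1e-06). For transcript45206, 0 of 9 were whole, 5 of 9 were within 0.01 of a whole number, and the largest distance was 0.471 counts. kallisto produces values between whole numbers when it divides reads among similar transcripts, and rounding moved no value of the pair by more than this.

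The other 4 WOX transcripts of the study were measured in the same libraries. They are 3 of the WOX13 clade, the oldest clade of the family, and CriWUL (transcript86941), the fern relative of the WUS clade. All 4 of 4 exceeded, in the RT, the average of the DR and SH with an adjusted p below 0.05 in edgeR, as did 30.3% of all transcripts, with a median log2 fold change of 1.43, against 0.05 over all transcripts. The study had selected these transcripts on the same libraries, so the count is not independent evidence of a direction. transcript45206 shared this call, and transcript86378 was the exception among the 6 in this contrast. Pairwise between RT and SH the exception was transcript45206, which was not called. There all 4 others and transcript86378 were higher in the RT, as were 29.9% of all transcripts.

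In the DR, 2 of these 4 were lower than the mean of the other segments, 0 were higher and 2 did not pass 0.05, where 31.5% of all transcripts were lower and 27.9% higher. CriWUL had a log2 fold change in the DR of -1.28 (adjusted p = 0.0322 in edgeR) and transcript39955 one of -1.50 (adjusted p = 0.0285). transcript134494 gave -0.13 (adjusted p = 0.694) and transcript140100 -0.15 (adjusted p = 0.439). Of the 6 WOX transcripts, transcript86378 was the only one called higher in the DR by this test. Pairwise between DR and SH, 0 of the 4 other WOX transcripts were called in either direction. CriWUL gave 0.95 (adjusted p = 0.168 in edgeR) and transcript39955 -0.72 (adjusted p = 0.306). transcript45206 was called lower in the DR in this pair, at -2.36, as were 30.8% of all transcripts.

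CriWUL, which shared with transcript45206 the calls in the RT and DR against the averaged segments, had few counts in the SH as well as in the DR. RT replicates 1 to 3 gave 94, 65 and 79 counts, the DR replicates 5, 11 and 5, and the SH replicates 1, 5 and 3. transcript45206 had 31 to 63 counts in the SH. Across the 9 libraries, on log2(CPM + 0.5), the correlation of transcript45206 was 0.75 with transcript39955, 0.63 with transcript140100, 0.56 with CriWUL and 0.53 with transcript134494 (Pearson's r, a description over libraries that share their segments). For transcript86378 these values were -0.31, 0.08, -0.03 and 0.23. Between the transcripts of the pair it was -0.69.

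RT replicate 1 was the lowest and RT replicate 3 the highest RT library for transcript45206 and for all 3 WOX13 clade transcripts. transcript140100, for example, had 17.3, 22.5 and 27.9 CPM in RT replicates 1 to 3. For transcript39955 the lowest place rested on 32 counts in RT replicate 1 against 37 in RT replicate 2. Without the TMM factors its RT replicate 1 lay above RT replicate 2, at 1.59 against 1.54 CPM. transcript134494 and transcript140100 kept their order without the factors. CriWUL did not share this order, being highest in replicate 1, at 3.75 CPM against 2.54 and 2.94. transcript86378 had its lowest RT level in replicate 2.

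**Figure D4:**
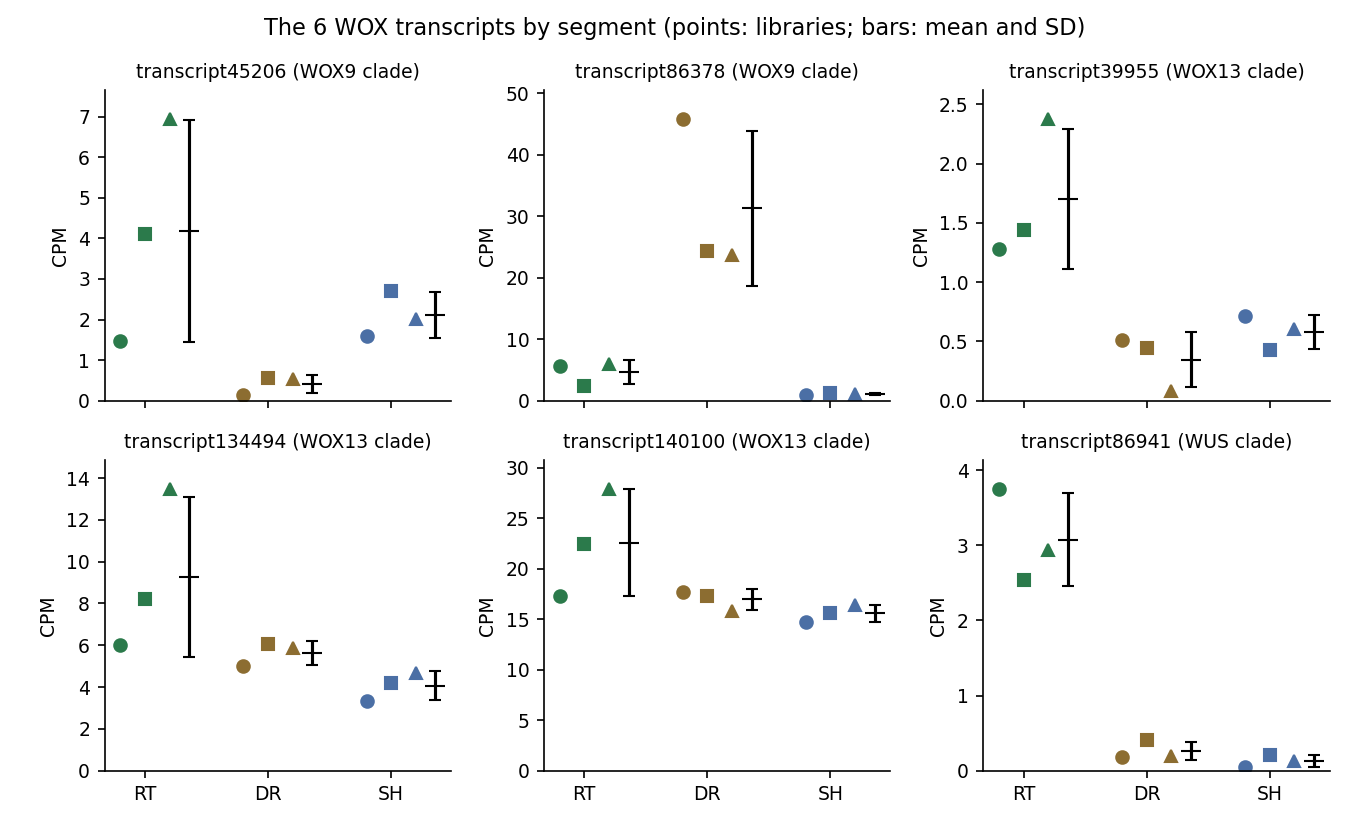
CPM of the 6 WOX transcripts in each library, by segment, each panel on its own linear axis from 0, with mean and SD. In 5 panels the RT has the highest mean. For transcript86378 the DR does, at 31.3 CPM.

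Wider lists of root and cell cycle regulators that the study or an earlier analysis of these libraries had picked held 21 transcripts, the 4 other WOX transcripts among them. They include D-type cyclins, the retinoblastoma-related cell cycle inhibitors, GRAS factors such as SHORT-ROOT and SCARECROW, receptor kinases related to ACR4 and PIN auxin transporters. In the DR, 1 of 21 was higher than the mean of the other segments, 14 were lower and 6 did not pass 0.05 (edgeR), with a median log2 fold change of -1.32, against -0.12 over all transcripts. Of all transcripts, 27.9% were higher and 31.5% lower in this contrast. In the RT, 17 of 21 were higher, 1 lower and 3 not past 0.05, against 30.3% higher and 27.6% lower of all transcripts. All 6 of the 6 CYCD transcripts were among the higher ones. Because the lists were picked on these libraries, the counts are not independent evidence of a direction. The calls of transcript45206 had the directions of most of these transcripts, and transcript86378 had the direction of the 1 that was higher in the DR.

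The transcripts whose levels followed each of the pair most closely were sought among the 23294 with a mean of at least 1 CPM, by Pearson's r on log2(CPM + 0.5) over the 9 libraries. The table gives no gene names for them. transcript86378 was most like transcript122253 (r = 0.997), at 105 ± 61.2 CPM (SD, n = 3) in the DR, 8.84 ± 5.57 in the RT and 0.837 ± 0.0752 in the SH, and transcript49644 (r = 0.996). transcript45206 was most like transcript63441 (r = 0.994), at 42.2 ± 10.6 CPM in the RT, 34.3 ± 1.30 in the SH and 22.7 ± 1.85 in the DR, and transcript61859 (r = 0.980). By Spearman's rho, 0 of the 2 transcripts named for transcript86378 and 1 of the 2 named for transcript45206 remained the closest. Pearson's r disregards the size of a change. The segment means of transcript63441 span a far smaller fold range than those of transcript45206, and transcript122253 spans a wide range as transcript86378 does.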

How the data were processed

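Reads were trimmed by the authors (Trimmomatic 0.32), all libraries were assembled together (Trinity), similar contigs were clustered (CD-HIT, Compacta), and kallisto 0.44.0 gave the abundance per library. Low transcripts were removed (filterByExpr in edgeR). The deposited table holds estimated counts per transcript, not divided by library size or length. The file's name mentions TPM, but its columns do not share a total. In each library 17.1% to 19.1% of values lie between whole numbers. kallisto can divide reads among similar transcripts, and the clustering can merge or split close copies.

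The estimated counts were rounded and tested with edgeR 4.0.16 (R 4.3.3) by its quasi-likelihood test, with TMM scaling, 1 coefficient per segment over all 9 libraries, a prior count of 0.125 and no further filter. The study used limma voom, which was tried as an alternative. Standard errors were derived from the F statistic and the fold change. Total counts of 20065742 to 27376654 make levels of a few counts imprecise. The fit was tested on simulated data. Alternatives were other scaling, filters, prior counts and pseudocounts, unrounded counts, DESeq2 1.42.0, limma voom (limma 3.58.1), the replicate block, fits of single pairs of segments and each library left out.

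The named transcripts are the pair, the other WOX transcripts, the study's root regulators as lists and, for each of the pair, the 2 with the highest Pearson's r. The pair, lists and tests were chosen with earlier results of these data known. Replicates of a segment differed by more than counting noise (mean chi-square over transcripts 19.1 or more). No transcript number matched the RefSeq gene table (C.richardii_v2), so no coordinates or sequences are given.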

Additional observations from a re-analysis of the deposited data

How the results depend on the processing

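All 12 edgeR contrasts of the pair kept their direction under every alternative run. In 11 of them the side of the 0.05 threshold was also kept. The exception was transcript45206 between RT and SH, from 0.43 to 1.39 with single libraries left out, which passed 0.05 without RT replicate 1 only. transcript45206 in the RT ranged from 1.58 to 2.57, and transcript86378 in the DR from 3.42 to 3.99. The ratio of the pair in the DR ranged from -5.70 to -4.79 with single libraries left out, with adjusted p (exact permutation) of 0.0536 to 0.107, the smallest that fewer libraries allow after adjustment. It was -6.30 with 0.1 CPM added and -4.65 with 1 CPM. With the segments permuted within replicate numbers (replicate block) it was -5.33 with adjusted p = 0.111, again the smallest possible.

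Over all transcripts the replicate numbers showed no clear pairing: of 9 same-numbered pairs, 2 had correlated deviations over 0.1, and the lowest was -0.411. These deviations are centred on 3 libraries per segment and cannot exclude pairing. For 0 of 9 libraries was the best match in both other segments its own number. The block moved the 8759 transcripts higher in the RT to 8287 and changed no edgeR call of the pair. For transcript45206, however, replicate 1 was the lowest library in each segment. With the block its SE in the RT contrast was 0.34, against 0.47 without. Its SH contrast then had adjusted p = 0.0708 in edgeR, against 0.257. Library size alone moved the median log2 fold change of all transcripts in the SH from -0.05 to -0.47, with 5688 higher and 12362 lower, against 8300 and 7986 with TMM. The 4 counts in DR replicate 1 limit the precision of transcript45206 there.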
